A study of Mus musculus with 2 samples.

Results

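The genes described are the histone cluster genes of mouse natural killer (NK) cells, which are all genes of the count matrix whose name begins with Hist1h, Hist2h, Hist3h or Hist4h. There were 66 of them among 16789 gene symbols, and no measured level entered the choice. They comprise 6 genes of the linker histone H1, 18 of H2A, 17 of H2B, 12 of H3 and 13 of H4. NK cells are innate lymphocytes able to kill tumour cells and infected cells. They came from spleen, bone marrow and subcutaneous tumours of MC38, a mouse colon carcinoma line, in C57BL/6 mice aged 12 weeks, and were sorted as lineage-negative cells with NK1.1 and CD49b. RNA of single cells was captured in droplets and counted by unique molecular identifiers (UMIs), 1 UMI standing for 1 captured molecule. The labels describe mice fed ad libitum or kept on a cyclic fasting diet. Hashtag antibodies marked 10 populations that shared 1 lane: ad libitum, fasted and refed populations of each of the 3 tissues, and a spleen population called naive in the list of hashtags. The meaning of naive, the times of sampling and the number of mice behind a population are not stated in the sources used here. Each population carried 1 hashtag and was 1 sample, so no difference below has a replicate check, no test was possible, and every interval covers counting error only.

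Histones package DNA into nucleosomes, in which H2A, H2B, H3 and H4 form the core and H1 binds the linker DNA. Most genes of the clusters are transcribed when a cell copies its DNA, and their mRNA ends in a conserved stem-loop that is bound by the protein Slbp and replaces the poly(A) tail of other mRNAs. Some members also make polyadenylated transcripts, which are known from cells that no longer divide. The method primes reverse transcription on poly(A), so transcripts that end at the stem-loop are captured only in part, and an order of levels between members also carries how well each 3' end is captured. UMIs count molecules and not bases, so levels were not divided by gene length.

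All 66 members were found in the GENCODE M21 annotation of mouse genome GRCm38, with 53 on chromosome 13, 10 on chromosome 3, 2 on chromosome 11 and 1 on chromosome 6. Of these, 61 had a single exon in every annotated transcript. A stem-loop was found in an annotated transcript of 40 members, in 7 forms of its 16-base core, and the annotated transcripts of the other 26 did not hold it. The following stem-loops, with the core in capitals and flanking bases in lower case, are shown because they stand in members whose levels behave very differently below. The core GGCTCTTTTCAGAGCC stood in 26 members and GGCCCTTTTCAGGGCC in 7.
Hist1h2ae: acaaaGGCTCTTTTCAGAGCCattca
Hist1h1e: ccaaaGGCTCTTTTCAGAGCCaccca
Hist1h1c: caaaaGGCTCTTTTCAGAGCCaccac
Hist3h2a: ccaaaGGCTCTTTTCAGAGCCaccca
Hist1h4d: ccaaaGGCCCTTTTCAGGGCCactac
Hist2h2ac: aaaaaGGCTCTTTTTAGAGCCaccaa
They lie at chr13:23570663-23570688 (minus strand), chr13:23621777-23621802 (minus), chr13:23739507-23739532 (plus), chr11:58955167-58955192 (plus), chr13:23581945-23581970 (plus) and chr3:96220413-96220438 (minus), in that order. Hist1h2ae, whose level followed DNA replication closely, Hist1h1c, which did so only in bone marrow cells, and Hist3h2a, which did not, thus carried the same core. They differed in how far the annotated transcript runs on past the stem-loop, which was 151 bases in Hist1h2ae, 840 in Hist1h1c and 1643 in Hist3h2a. Whether this distance bears on that link was not tested. Among other members, it was 4884 bases in Hist1h1d, 1861 in Hist1h2be, 1153 in Hist1h1e and 770 in Hist1h4d. All of these were higher in cells with more replication RNA, pooled over tissues as defined below. Their log2 ratios were 1.58, 1.30, 0.97 and 2.09, against 0.16 in Hist1h1c. Pooled ratios mix the tissues: that of Hist1h1e was 0.60 in the spleen and 2.22 in the bone marrow.

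A poly(A) signal, AATAAA or ATTAAA in the last 50 bases of an annotated transcript, was found in 17 members, among them Hist1h1c, Hist1h2ae, Hist1h2be, Hist1h4i, Hist3h2a and Hist3h2ba. Members resemble each other, so the authors' counting could assign reads of one to another. Windows of 90 bases, the length of the cDNA read, were taken from the last 500 bases of each annotated transcript, the part that 3' capture reads. For 28 members more than 50% of these windows also occurred in a transcript of another gene. In Hist1h2ap that share was 92.4% and for Hist1h2ae 47.7%, against 0% for Hist1h1b, Hist1h4d, Hist1h1c, Hist1h1d and Hist3h2a. Hist1h1e overlaps a longer annotated transcript of Hist1h2be and the model Gm11398, with 99.0% of those windows shared with them, so its counts may hold reads of either. In all, 24 members overlap another annotated gene.

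The promoters of 3 H1 genes are shown because these genes, of 1 family and on 1 chromosome, had very unequal links to DNA replication. Each is the 150 bases before the start site in RefSeq's promoter table (GRCm38.p6), read 5' to 3' on the gene's strand. Capitals mark AAACACA, known as the H1 box, the CCAAT box and the TATA box TATAAA, on either strand.
Hist1h1b: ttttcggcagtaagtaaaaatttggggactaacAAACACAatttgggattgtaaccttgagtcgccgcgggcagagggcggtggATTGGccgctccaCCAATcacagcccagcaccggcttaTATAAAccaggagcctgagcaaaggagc
Hist1h1e: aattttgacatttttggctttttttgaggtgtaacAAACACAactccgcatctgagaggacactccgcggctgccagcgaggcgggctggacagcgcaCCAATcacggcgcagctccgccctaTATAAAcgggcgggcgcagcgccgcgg
Hist1h1c: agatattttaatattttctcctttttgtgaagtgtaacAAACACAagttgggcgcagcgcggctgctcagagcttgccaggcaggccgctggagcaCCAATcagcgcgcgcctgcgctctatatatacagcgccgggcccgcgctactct
They lie at chr13:21780626-21780775 (minus), chr13:23622559-23622708 (minus) and chr13:23738657-23738806 (plus). All 3 hold the H1 box and the CCAAT box, and TATAAA is found in the first pair. Each promoter in the table spans 300 bases around the start (250 before, 50 after). The table held 32851 promoters in all, and 1 promoter was taken for each of the 59 members found in it. Motifs were searched on both strands without regard to overlap between them. AAACACA stood in 5 of 6 H1 promoters and in 7.18% of all promoters. CCAAT stood in 84.7% of the members' promoters against 37.4% of all, and in every one of the H1, H2A, H2B and H3 promoters, but in 3 of 12 H4 promoters. TATAAA stood in 55.9% against 13.6%. The octamer ATTTGCAT, a known element of H2B promoters, stood in 5 of 15 H2B and 6 of 16 H2A promoters and in 1.74% of all. A match describes the letters and is not a mapped site.

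After cells called doublets were left out, 7479 cells remained, and 303 of them, in clusters named T cell-like or monocyte or macrophage-like, were left out as well. The 7176 cells used numbered 798, 1769, 1359 and 1453 in the spleen (naive, ad libitum, fasted, refed), 497, 119 and 280 in the bone marrow and 43, 767 and 91 in the tumour (ad libitum, fasted, refed). Summed over cells, the depth was lowest at 546428 UMIs (ad libitum tumour) and highest at 8642789 (ad libitum spleen). All markers of NK cells were detected in every population, with a summed level of 13181 to 32622 counts per 1000000 UMIs (CPM). T cell markers summed to 333 to 467 CPM and B cell markers to 4.47 CPM or less. Monocyte or macrophage markers summed to 541 to 761 CPM in the spleen, 174 to 223 in the bone marrow and 188 to 273 in the tumour. Dendritic cell markers summed to 339 to 524 CPM in the tumour against 63.6 to 126 elsewhere, with Clec9a at 0 in all 10 populations. Erythroid markers summed to 377 to 649.7 CPM in the tumour against 215 to 289 elsewhere, with 7 of 8 at 0 in the ad libitum tumour. These levels differed along with the tissues compared below, and their part in the results was not tested. The hashtags cannot show doublets of cells with the same hashtag.

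The 66 members together gave 67338 UMIs, of which 47.1% came from the H1 genes and 55.5% from the 4 highest members. Their summed level was 1384 CPM (95% interval 1347 to 1422) in the naive spleen population, 1480 (1455 to 1506) in the ad libitum, 1257 (1227 to 1288) in the fasted and 1347 (1320 to 1374) in the refed spleen population. In the bone marrow it was 3619 (3564 to 3676) ad libitum, 1819 (1712 to 1930) fasted and 3222 (3152 to 3292) refed. The tumour gave 1001 (919 to 1089), 1022 (996 to 1049) and 914 (861 to 970). The 3 bone marrow populations were thus the highest and the 3 tumour populations the lowest. These sums rest on few cells. The highest single cell held 20.6% of the member UMIs of the fasted bone marrow, 42.2% of the ad libitum tumour and 23.8% of the refed tumour population, against 1.8% to 5.8% elsewhere.

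**Figure D1:**
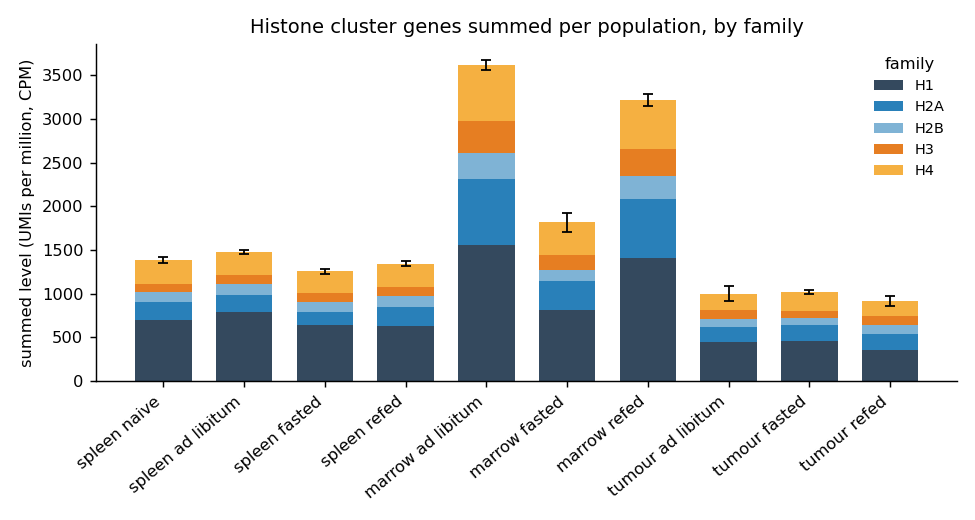
Summed level of the histone cluster genes (CPM, y axis) in each of the 10 populations (x axis), with bars stacked by family and black bars for the 95% counting interval of the whole sum. The bone marrow ad libitum bar reaches 3619 CPM and the fasted bone marrow bar 1819, while the tumour bars lie between 914 and 1022.

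Among the linker histones, Hist1h1b (H1.5) had the widest range. It stood at 145, 139, 82.7 and 136 CPM in the naive, ad libitum, fasted and refed spleen populations, at 801, 311 and 729 in the ad libitum, fasted and refed bone marrow and at 196, 119.9 and 130.4 in the tumour. All 3 bone marrow values were above all others, and the fasted value was the lowest within both spleen and bone marrow. Hist1h1e (H1.4), the highest member by mean level, stood at 379.8, 444, 364 and 326 CPM in the spleen, 526, 350.0 and 474 in the bone marrow and 174, 205 and 134 in the tumour. Here the tumour values were the lowest, and spleen and bone marrow overlapped. Hist1h1c (H1.2) stood at 109, 144, 143 and 121 CPM in the spleen, 105, 114 and 98.1 in the bone marrow and 49.4, 95.2 and 65.6 in the tumour, so that spleen and bone marrow differed little. Hist1h1d (H1.3) gave 55.0, 49.1, 40.7 and 39.1 CPM in the spleen, 85.8, 35.2 and 70.9 in the bone marrow and 20.1, 22.0 and 14.1 in the tumour.

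For the H2A genes, Hist1h2ae stood at 39.7, 37.4, 23.1 and 39.2 CPM in the spleen, 191, 67.0 and 171 in the bone marrow and 36.6, 47.7 and 51.5 in the tumour. Hist1h2ap gave 29.6, 36.7, 29.1 and 37.4 CPM, then 173, 63.6 and 158, then 40.3, 35.7 and 36.5 in the same order. Hist2h2ac gave 39.1, 36.8, 25.4 and 42.3 CPM, then 131, 50.2 and 119, then 31.1, 30.9 and 36.5. In each of these 3 genes the bone marrow values were the highest, and spleen and tumour overlapped. The H2B gene Hist1h2be stood at 26.7, 24.0, 25.6 and 25.8 CPM in the spleen, 60.1, 40.2 and 43.0 in the bone marrow and 16.5, 14.2 and 10.8 in the tumour.

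The H3 gene Hist1h3e stood at 30.4, 30.1, 26.8 and 29.3 CPM in the spleen, 105, 51.9 and 87.1 in the bone marrow and 32.9, 30.9 and 31.6 in the tumour. Hist1h3c, another H3 gene, gave 15.6, 20.6, 12.1 and 19.1 CPM in the spleen, 118, 55.3 and 98.9 in the bone marrow and 31.1, 20.4 and 21.6 in the tumour. Of the H4 genes, Hist1h4d stood at 154, 162, 132 and 157 CPM in the spleen, 465, 279.7 and 410.3 in the bone marrow and 126, 146 and 120.4 in the tumour. Hist1h4i gave 26.2, 27.0, 21.6 and 31.2 CPM in the spleen, 51.8, 23.4 and 40.6 in the bone marrow and 27.5, 24.7 and 23.3 in the tumour. The fasted bone marrow value of Hist1h4i fell within the spleen's range, unlike that of Hist1h4d and both H3 genes.

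**Figure D2:**
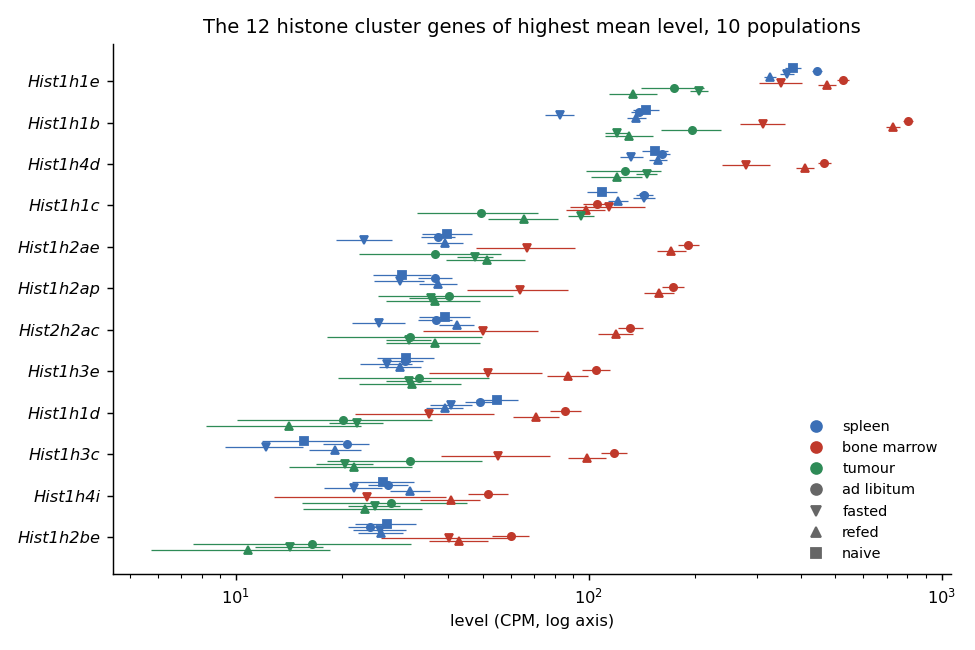
Level (CPM, log x axis) of the 12 histone cluster genes of highest mean level (y axis) in the 10 populations, coloured by tissue and shaped by feeding, with 95% counting intervals. In 8 of the 12 genes all 3 bone marrow points lie to the right of all other points, and in Hist1h1c they do not.

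Over all 66 members, 24 had all 3 bone marrow values above the other 7, against 3.39% of the 15641 genes with a UMI. For 12 members all 3 tumour values were below the other 7, against 14.3% of genes, a share close to theirs. Most members were low: 29 reached 20 CPM in at least 1 population and 37 did not. No member was without UMIs. The lowest were the testis-specific linker histone Hist1h1t with 1 UMI in all cells, Hist2h2aa2 with 3 and Hist1h2bq with 8, and for Hist2h2aa2 and Hist1h2bq all such windows also occur in another gene. Hist2h4 and Hist4h4, both H4 genes under 20 CPM in every population, were highest in the fasted spleen population, at 16.6 and 17.2 CPM. So were Hist3h2a at 28.9 CPM, Hist2h2aa1 at 5.97, Hist1h4m at 1.35 and Hist2h3c2 at 0.96. Of these, Hist2h4, Hist4h4 and Hist3h2a have a poly(A) signal and the others have none.

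Cells were next placed by a list of 29 DNA replication genes (such as Mcm2 to Mcm7, Pcna and Rrm2), which holds no histone gene. Each of the 6690 cells with at least 1500 UMIs was thinned to 1500 UMIs and placed by its UMIs of the list: 2991 cells had 0, 3025 had 1 to 2 and 674 had 3 or more. These are ranges of a count and not cell types. Next to the cut, 927 cells had 2 UMIs and 300 had 3. The median cell had 0 UMIs of a list of mitosis genes in both lower ranges and 1 in the highest. The highest range held 10.1% of the cells and 42.4% of the members' UMIs. Its cells were also deeper when pooled, with a median of 6102.5 UMIs against 4617 among cells with 0, but not in the naive spleen (4477 against 4716), the fasted spleen (3171 against 3797) and the fasted bone marrow (3930.5 against 4862.5).

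In every tissue the cells with 3 or more replication UMIs had more histone RNA than those with 0. The summed level of the members was 2959 against 1088 CPM in the spleen (2.72-fold), 6013 against 794 in the bone marrow (7.57-fold) and 1910 against 645 in the tumour (2.96-fold). A member was called different where it reached 20 CPM in at least 1 of the 2 groups, the log2 ratio of CPM + 5 was at least that of a 1.5-fold difference, and the 95% counting interval left out 0. In the spleen 27 of 66 members reached the minimum, of which 21 were called higher in the highest range and 1 lower, against 6.61% and 1.07% of all genes tested. The bone marrow had 32 such members, 32 called higher and 0 lower, against 17.7% and 12.5%. The tumour had 20, with 17 called higher and 1 lower, against 15.9% and 17.1%. Members could reach the minimum through the highest range alone, so these counts favour members that are high there. Hist1h2bn did so in the spleen, at 3.71 CPM with 0 and 21.2 with 3 or more replication UMIs. Hist1h2ag did so in the bone marrow, at 1.53 and 27.3 CPM. The shares of all genes followed the same rule. Regardless of the minimum, the level was higher in the highest range for 54, 60 and 54 of the 66 members in spleen, bone marrow and tumour. The matching share of all genes was not computed, so these counts describe the members only.

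The members differed widely in how far they followed the replication genes. Hist1h1b stood at 58.9 CPM in spleen cells with 0 replication UMIs and 598 in those with 3 or more, a log2 ratio of 3.24 (3.11 to 3.37). The bone marrow gave 61.7 and 1527 CPM for it, 4.52 (4.28 to 4.77), and the tumour 42.2 and 329, 2.82 (2.56 to 3.10). It was higher in the highest range in 10 of 10 populations. Hist1h3c, Hist1h2ae and Hist1h2ap came next in the pooled cells and were higher in 10 of 10 populations too. Hist1h2ae, for example, stood at 19.7 and 132 CPM in the spleen, 22.4 and 331 in the bone marrow and 11.6 and 150.4 in the tumour.

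Hist1h1e followed far less, from 346 to 528 CPM in the spleen, 0.60 (0.51 to 0.69), and from 174 to 220 CPM in the tumour, 0.33 (0.14 to 0.52), which was not called. In the bone marrow it stood at 175 and 835 CPM, 2.22 (2.06 to 2.39). Hist1h1c was called in the bone marrow alone of the 3 tissues. It stood at 126 and 135 CPM in the spleen, 0.09 (-0.08 to 0.26), and at 91.2 and 86.2 in the tumour, -0.08 (-0.36 to 0.20), but at 51.5 and 138 CPM in the bone marrow, 1.34 (1.05 to 1.64). Among bone marrow cells with 0 replication UMIs its level was thus below that of the spleen, and among cells with 3 or more it was close to it. Hist1h2bc, an H2B gene known for polyadenylated transcripts, stood at 20.7 and 19.5 CPM in the spleen, at 13.8 and 44.3 in the bone marrow and at 15.99 and 33.5 in the tumour, and was called higher in the latter pair of tissues.

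The pair of genes on chromosome 11 were each called lower in 1 tissue. Hist3h2a, an H2A gene, stood at 28.1 and 24.7 CPM in the spleen, -0.16 (-0.51 to 0.19), and at 24.0 and 5.78 in the tumour, -1.43 (-1.97 to -0.81), where it was called lower with 10 UMIs in the highest range. In the bone marrow it stood at 14.8 and 7.67 CPM, under the minimum level. It was higher in the highest range in 2 of 10 populations. Hist3h2ba, an H2B gene, stood at 22.9 and 10.4 CPM in the spleen, -0.86 (-1.28 to -0.42), where it was called lower. It stood at 9.69 and 4.67 CPM in the bone marrow and at 6.54 and 8.10 in the tumour, under the minimum in both, and was higher in 3 of 10 populations. No other member was called lower in the highest range of any tissue.

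A fixed list held 5 members reported with polyadenylated transcripts: Hist1h1c, Hist1h2bc, Hist1h2ac, Hist2h2be and Hist3h2a. Its sum gave log2 ratios of -0.25 and -1.32 in ad libitum bone marrow and tumour against spleen. Fasted against ad libitum, it gave -0.03 in the spleen, -0.18 in the bone marrow and 0.79 in the tumour. Refed against fasted, it gave -0.13, -0.01 and -0.22 in that order. The interval held 0 for -0.03, -0.18, -0.01 and -0.22. Members were also grouped by the poly(A) signal, with their levels known. The 17 members with a signal at an annotated end summed to 286 and 461 CPM in spleen cells with 0 and with 3 or more replication UMIs (1.61-fold), and the other 49 to 802 and 2499 (3.11-fold). The folds were 4.11 and 8.59 in the bone marrow and 1.89 and 3.39 in the tumour, in the same order. The grouping did not hold for every member. Hist1h2ae, which has a signal, had one of the highest ratios of all, and in the spleen Hist1h2bc at -0.07, Hist1h4c at 0.22, Hist1h1e at 0.60 and Hist1h3a at 0.64, which have none, had low ones. The signal was sought at annotated ends only, so the group without it can hold members with polyadenylated transcripts. Hist1h2bc and Hist1h2ac, both reported with such transcripts, fell in that group. Single members weigh heavily in the sums of both groups, such as Hist1h1c with a signal and Hist1h1b without.

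**Figure D3:**
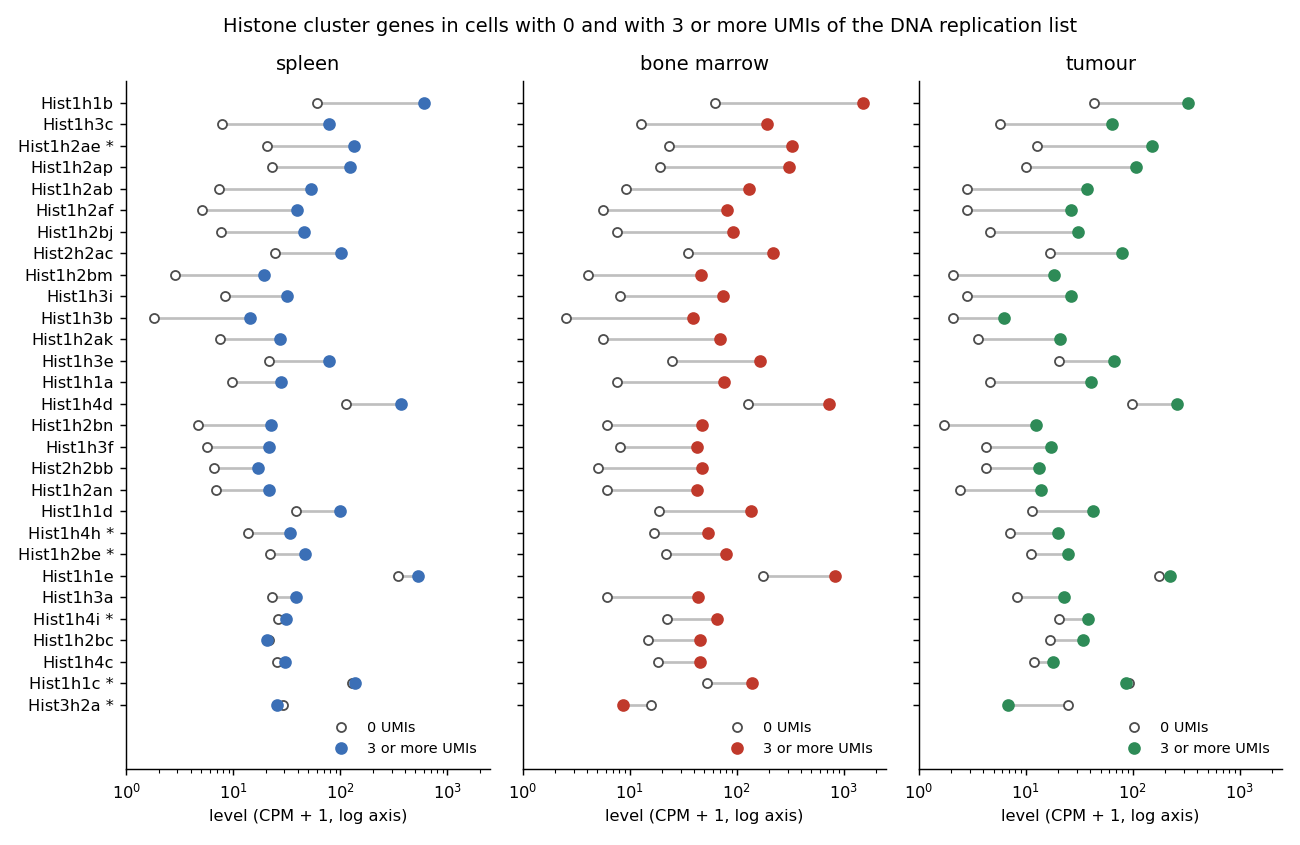
Level (CPM + 1, log x axes) of 29 histone cluster genes that reached 20 CPM in the pooled cells with 0 or with 3 or more replication UMIs, in the 3 tissues. Open points stand for cells with 0 and filled points for cells with 3 or more UMIs of the DNA replication list, and an asterisk marks a gene with a poly(A) signal at an annotated end. Hist1h1b at the top spans 61.7 to 1527 CPM in the bone marrow, Hist1h1c lies at 126 and 135 CPM in the spleen, and Hist3h2a at the bottom goes from 24.0 to 5.78 CPM in the tumour.

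The share of cells in the highest range and the histone level within it both differed between populations. In the bone marrow the share was 27.3% (130 of 477 cells, exact 95% interval 23.3 to 31.5) ad libitum, 10.1% (10 of 99, 5.0 to 17.8) fasted and 31.1% (83 of 267, 25.6 to 37.0) refed. In the spleen it ranged from 6.0% in the fasted to 8.7% in the refed population. In the tumour it was 16.7% (5 of 30, 5.6 to 34.7) ad libitum, 8.3% (59 of 713, 6.4 to 10.5) fasted and 24.1% (20 of 83, 15.4 to 34.7) refed. Within the range, the members summed to 5839 to 6979 CPM in the bone marrow, 2033 to 3602 in the spleen and 1558 to 2108 in the tumour. The bone marrow span lay above the other two, and those of spleen and tumour overlapped. The cells of the range also differed otherwise. Their replication list summed to 4150 CPM in the bone marrow, 2764 in the spleen and 2787 in the tumour, and their mitosis list to 3953, 1721 and 1124 CPM. Tumour and spleen cells of the range, pooled over populations, thus had similar replication levels and histone sums of 1910 and 2959 CPM. This order did not hold in the fasted populations, which gave 59 of the 84 tumour cells: there the histone sum was 2108 CPM in the tumour and 2033 in the spleen, with replication levels of 2693 and 1619 CPM.

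**Figure D4:**
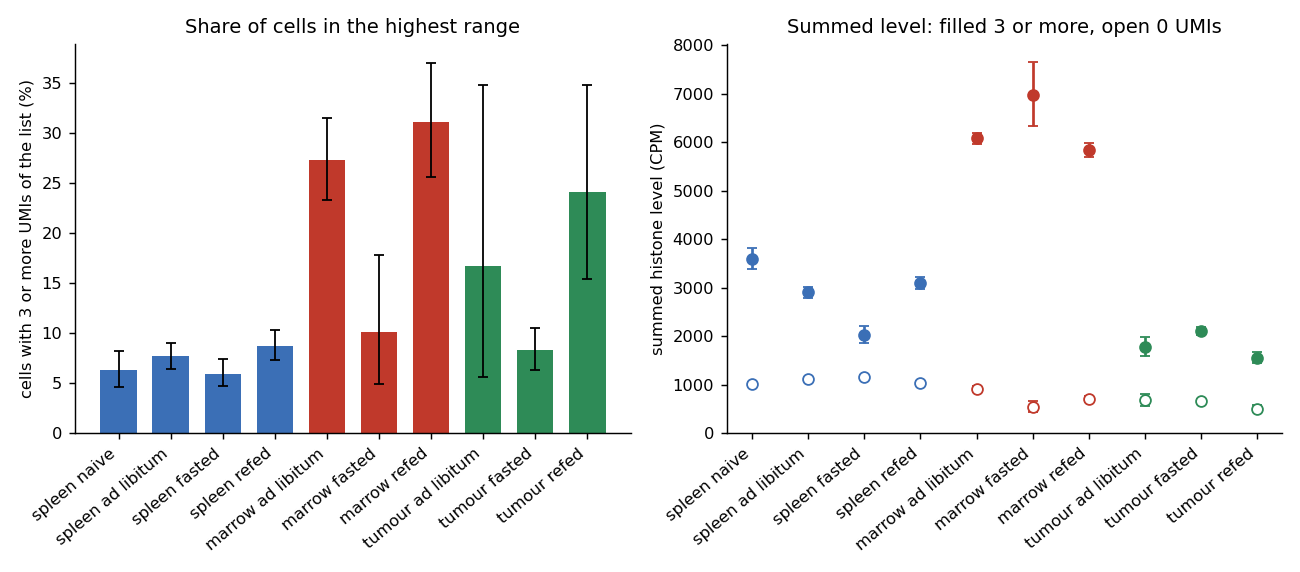
Left: share of cells (%, y axis) with 3 or more UMIs of the DNA replication list in each population, with exact 95% binomial intervals. Right: summed histone level (CPM, y axis) in cells with 3 or more (filled) and 0 (open) such UMIs, with 95% counting intervals. The share is 27.3% in the ad libitum and 10.1% in the fasted bone marrow, while the filled points of the bone marrow lie between 5839 and 6979 CPM.

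Between the ad libitum bone marrow and spleen populations, histone genes were higher in the bone marrow almost throughout. The summed level was 3619 against 1480 CPM, a log2 ratio of 1.29 (1.25 to 1.32). Of 29 members at 20 CPM or more, 23 were called higher and 2 lower, against 9.96% and 7.62% of all genes. Regardless of level, 57 of all 66 members were higher, against 44.3% of all genes with a UMI. H2A genes had the largest ratio of sums at 1.86 (1.77 to 1.94), followed by H3 at 1.77 (1.65 to 1.88), H4 at 1.28 (1.20 to 1.36), H2B at 1.25 (1.14 to 1.37) and H1 at 0.98 (0.93 to 1.03). By gene, the ratios were led by Hist1h1b at 2.48 (2.39 to 2.58), Hist1h3c at 2.27 (2.06 to 2.48), Hist1h2ae at 2.21 (2.04 to 2.38), Hist1h2ap at 2.09 (1.92 to 2.27), Hist1h2ab at 1.99 (1.75 to 2.23) and Hist1h2bj at 1.83 (1.56 to 2.09). Called lower were the same chromosome 11 genes, Hist3h2ba with 6.92 against 23.1 CPM, -1.24 (-1.58 to -0.88), and Hist3h2a with 12.7 against 28.0 CPM, -0.90 (-1.21 to -0.57).

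Much of this difference sat in a minority of cells. The median cell had 828 CPM in the bone marrow and 1062 in the spleen, and the highest 25 of 497 bone marrow cells held 46.1% of the members' UMIs. Among cells with 0 replication UMIs the bone marrow was lower, 906 against 1127 CPM, and 1 cell held 23.5% of its histone UMIs there. The bone marrow was higher among cells with 1 to 2, 2566 against 1498 CPM, and among those with 3 or more, 6086.5 against 2908 CPM. Cells of the same range were not alike in the 2 tissues. With 1 to 2, replication genes summed to 1097 against 684 CPM and mitosis genes to 2982 against 533. With 3 or more, these were 4242 against 2598 and 3993 against 1784 CPM. Without the authors' clusters 6 and 10, whose cells had the highest mitosis levels, the ratio of sums was -0.34 in place of 1.29. The cells of the highest range were deeper in the bone marrow, with a median of 12558 against 4855 UMIs, and the part of depth in the difference was not tested.

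Fasting was compared with ad libitum feeding within each tissue. In the bone marrow the fasted population had 1819 against 3619 CPM, a log2 ratio of -0.99 (-1.08 to -0.90), or -1.26 without the highest cell of each population. Of 27 members at 20 CPM or more, 20 were called lower and 0 higher, against 10.2% and 9.39% of all genes. Regardless of level, 59 of all 66 members were lower and 5 higher, while 44.3% of all genes with a UMI were higher. The largest ratios were those of Hist1h1a at -1.72 (-2.53 to -0.82), Hist1h2ak at -1.71 (-2.52 to -0.80), Hist1h2ae at -1.45 (-1.90 to -1.02), Hist1h3i at -1.45 (-2.24 to -0.65), Hist2h2bb at -1.39 (-2.15 to -0.38) and Hist1h2ap at -1.37 (-1.84 to -0.93). Hist1h1a and Hist1h2ak each stood at 8.37 CPM after fasting, which is 5 UMIs. Hist1h1b had 311 against 801 CPM, -1.35 (-1.57 to -1.14), and Hist1h1c 114 against 105 CPM, which was not called. The list of DNA replication genes was lower as well, 755 against 2211 CPM, with 24 of 27 tested genes called lower. Within the ranges, the fasted bone marrow was lower among cells with 0 replication UMIs (544 against 906 CPM) and with 1 to 2 (1498 against 2566). It was not lower among those with 3 or more (6979 against 6086.5 CPM), which were 10 fasted cells. Single cells weighed heavily in these levels. In the range of 0, 1 cell held 23.5% of the ad libitum histone UMIs. In the fasted population, 1 cell held 44.2% of them in the range of 1 to 2, and 1 cell 51.6% in the highest range.

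Refed bone marrow had 3222 CPM against 1819 in the fasted population, a log2 ratio of 0.82 (0.73 to 0.92). Regardless of level, 55 of 66 members were higher, against 50.1% of all genes with a UMI. Of 27 members at 20 CPM or more, 14 were called higher and 0 lower, against 9.09% and 11% of all genes. The largest were Hist2h2bb at 1.90 (0.87 to 2.66), Hist1h2ak at 1.68 (0.76 to 2.51), Hist1h1a at 1.67 (0.74 to 2.50), Hist1h2ae at 1.29 (0.85 to 1.76), Hist1h2ap at 1.25 (0.80 to 1.73) and Hist1h1b at 1.21 (1.00 to 1.43). Both bone marrow contrasts share the fasted population of 119 cells, so they do not repeat each other. The comparison rests on cells of high UMI count too: without cells above 20000 UMIs the ratio was -0.36 for fasting and 0.087 for refeeding.

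In the spleen the differences were small and few members were called. The fasted population had 1257 against 1480 CPM, -0.23 (-0.28 to -0.19). The ratio was -0.064 in thinned cells, -0.063 without clusters 6 and 10, -0.10 with the same weight per cell and -0.12 without cells of 3 or more replication UMIs. Hist1h1e, which was not called, stood at 364 against 444 CPM. Of 17 members tested, 2 were called lower and 0 higher, against 1.08% and 0.919% of all genes: Hist1h1b at -0.72 (-0.87 to -0.56) and Hist1h2ae at -0.59 (-0.85 to -0.33). Of all 66 members, 41 were lower and 24 higher in the fasted population, while 50.9% of all genes with a UMI were higher. Refed against fasted, the sum gave 0.10 (0.05 to 0.14), and 3 of 16 members were called higher and 0 lower, against 1.37% and 1.15%. The ratio of sums changed sign to -0.12 without clusters 6 and 10, to -0.11 without cells of 3 or more replication UMIs, to -0.045 in thinned cells and to -0.011 with the same weight per cell. The called members were Hist1h1b at 0.69 (0.53 to 0.85), Hist1h2ae at 0.65 (0.39 to 0.92) and Hist2h2ac at 0.64 (0.38 to 0.89). Hist1h1b thus stood at 139 CPM ad libitum, 82.7 fasted and 136 refed, while Hist1h1c stood at 144, 143 and 121. Mitosis genes moved with them, at 539 CPM ad libitum, 240.1 fasted and 441 refed, and 8 of 9 tested were called lower in the fasted population. Among spleen cells with 0 replication UMIs the fasted and ad libitum populations had 1150 and 1127 CPM of histone RNA, and among cells with 3 or more 2033 and 2908 CPM, where 1 cell held 33.9% of the fasted UMIs.

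In the tumour the fasted and ad libitum populations had 1022 and 1001 CPM, a ratio of 0.03 (-0.10 to 0.16). Of 12 members tested, Hist1h1c was called higher, 95.2 against 49.4 CPM, 0.88 (0.37 to 1.43), and Hist1h1b lower, 119.9 against 196 CPM, -0.68 (-0.97 to -0.39), against 7.45% and 7.1% of all genes. The ad libitum population had 43 cells. Without the highest cell of each gene and population, Hist1h1b gave 0.83 and Hist1h1c 0.97, and the ratio of sums without the highest cell of each population was 0.53. Refed against fasted, the sum gave -0.16 (-0.25 to -0.07). Of 12 members, Hist1h2bc was called higher at 0.84 (0.40 to 1.26), or 0.53 without its highest cells, and Hist1h1e lower at -0.60 (-0.84 to -0.37), against 5.21% and 5.43% of all genes. The replication list was higher in the refed tumour, 1613 against 1003 CPM, with 11 of 22 genes called higher.

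Tumour and spleen ad libitum populations differed in opposite ways for histone and replication genes. The histone sum was 1001 CPM in the tumour and 1480 in the spleen, -0.56 (-0.69 to -0.44), and the replication list 1535 and 718 CPM, 1.09 (0.99 to 1.20), with 16 of 23 genes called higher. Of 17 members tested, 6 were called lower and 0 higher, against 24% and 13.4% of all genes, so that the share called lower was not far from that of genes at large. They were Hist3h2a at -1.65 (-2.44 to -0.63), Hist1h1c at -1.45 (-1.99 to -0.94), Hist1h1e at -1.33 (-1.63 to -1.04), Hist3h2ba at -1.19 (-2.02 to -0.23), Hist1h1d at -1.11 (-1.86 to -0.38) and Hist1h3a at -1.08 (-1.93 to -0.17). Hist1h1b was at 196 against 139 CPM, 0.48 (0.19 to 0.76), and was not called, and without its highest cells the ratio was -1.17. Leaving out the highest cell of each population, the ratio of sums was -1.11, and scaling factors from edgeR's TMM method gave -0.34. The larger fasted populations had the same order, with 1022 CPM of histone and 1003 of replication genes in the tumour and 1257 and 546 in the spleen.

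Ad libitum and naive spleen populations were nearly alike, with 1480 and 1384 CPM, 0.10 (0.05 to 0.14). Of 17 members tested, 0 were called higher and 0 lower, against 0.167% and 0% of all genes. Regardless of level, 33 of the 66 members were higher and 33 lower, while 51.4% of all genes with a UMI were higher.

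Genes that make or handle histone mRNA and protein were compared from fixed lists. Of those for histone mRNA transcription and 3' end processing, 9 of 11 were tested between ad libitum bone marrow and spleen. Only 1 was called higher, against 9.96% of all genes, which is near the share of genes at large. It was Lsm11, a component of the U7 particle that cuts histone mRNA, at 0.64 (0.33 to 0.95). Slbp, chosen for its role, stood at 178 and 139.5 CPM there, 0.34 (0.21 to 0.46), and at 120.6 CPM in the fasted bone marrow. Npat, which switches on histone transcription, stood at 12.5 and 11.2 CPM. Of the 18 histone chaperone and assembly genes, 7 of 15 tested were called higher in the bone marrow and 0 lower. The shares of all genes were 9.96% and 7.62%. They were led by Asf1b at 1.94 (1.70 to 2.18), Chaf1a at 1.55 (1.23 to 1.85), Nap1l1 at 1.04 (0.92 to 1.16) and Nasp at 0.97 (0.81 to 1.12). In the fasted bone marrow 7 of 15 were called lower and 1 higher, against 10.2% and 9.39% of all genes. The lower ones were led by Chaf1a at -1.69 (-2.44 to -0.68), Asf1b at -1.56 (-2.27 to -0.88), Hat1 at -1.20 (-1.82 to -0.60) and Nap1l1 at -0.89 (-1.21 to -0.57).

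Histone variant genes outside the clusters summed to 7384 CPM in the ad libitum bone marrow and 7342 in the spleen, 0.01 (-0.01 to 0.03). Genes within that sum lay on either side, with H2afz at 2875 against 2445 CPM and H3f3b, an H3.3 gene, at 1754 against 2502. In the fasted bone marrow the sum was 5999 against 7384 CPM ad libitum, -0.30 (-0.35 to -0.25). Of 8 tested between bone marrow and spleen, 2 were called higher and 0 lower, against 9.96% and 7.62% of all genes. They were H2afx, which is phosphorylated at DNA breaks, at 1.69 (1.56 to 1.81) and the centromeric H3 gene Cenpa at 1.32 (1.15 to 1.48). Between ad libitum tumour and spleen 9 were tested, with 2 called higher and 1 lower, against 13.4% and 24% of all genes. H2afz was called lower, 1325 against 2445 CPM. H1f0, a linker histone known from resting and differentiated cells, was called higher, 27.5 against 3.82 CPM, 1.88 (1.17 to 2.51). Its tumour level rests on few UMIs of 43 cells, where 3 UMIs make 5.49 CPM. The cluster genes Hist1h1e, Hist1h1c and Hist1h1d were all lower in that contrast, and no link to H1f0 was tested.

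The authors' 12 clusters, numbered 0 to 11, are described only, since the clusters were made from the cells' genes. Cluster 10 had the highest histone sum, 6040 CPM in 223 cells, of which 62.3% were from the bone marrow, and Hist1h1b stood at 1460 CPM in it. Cluster 6 followed with 2555 CPM. Both had the highest mitosis sums, 4566 and 3425 CPM. Cluster 2 was lowest at 699 CPM. Cluster 11, with 95.5% of its 88 cells from the tumour, had a replication sum of 1586 CPM, close to the 1572 of cluster 6. Its histone sum was 829 CPM, and its mitosis sum, at 477 CPM, was also far below that of cluster 6. Hist1h1c ranged only from 55.6 CPM in cluster 2 to 196 in cluster 9. Hist3h2a was low in clusters 11 and 10, at 7.03 and 9.32 CPM, and highest in cluster 4, at 38.6. The median cell had 26935.5 UMIs in cluster 11, 17293 in cluster 10 and 2214.5 in cluster 6, so these clusters differed widely in depth.

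**Figure D5:**
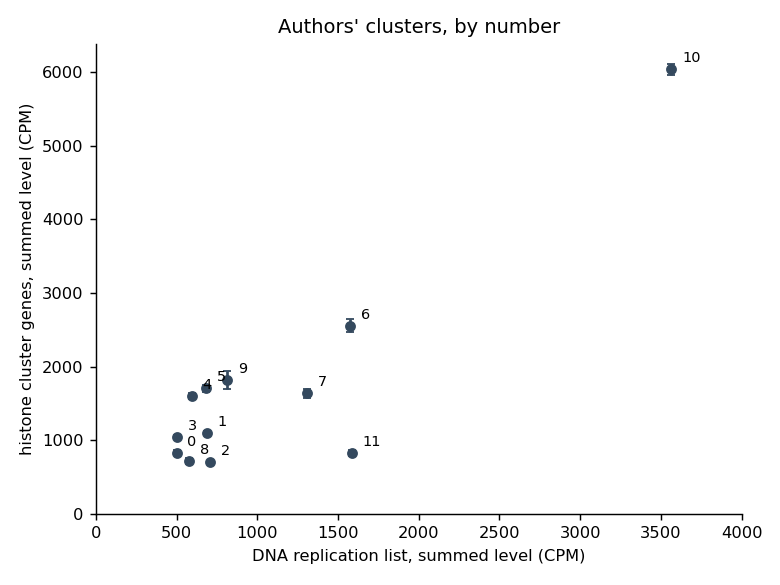
Summed level of the histone cluster genes (CPM, y axis) against that of the DNA replication list (CPM, x axis) in the authors' 12 clusters, with their numbers and 95% counting intervals. Cluster 10 lies at the top right with 6040 CPM of histone RNA. Cluster 11 lies far below cluster 6 at nearly the same replication level, with 829 against 2555 CPM. Their mitosis sums, not drawn, were 477 and 3425 CPM.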

How the data were processed

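NK cells of 10 hashtagged populations were run in 1 lane, and the authors deposited a matrix of UMI counts per cell and gene, built with seqc per the labels' protocols, on mm10 per the submitters' processing notes, with a hashtag classification and cluster numbers (how either was made is not stated in the sources used). Of 13118 cells, 13085 were classified and 5606 (42.8%) called doublets. Counts of 11 repeated symbols were summed. The 7479 single cells were clustered without histone, mitochondrial and ribosomal protein genes (scanpy 1.11.5, 2000 variable genes, 30 components, 15 neighbours, leidenalg 0.10.2, resolution 0.8). A cluster was given a name from at least 3 fixed markers, and 303 cells of other types were left out. No further doublet caller was run.

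Counts were summed per population and scaled to counts per 1000000 UMIs (CPM). Differences are log2 ratios of CPM + 5. Level intervals are exact Poisson, and intervals of ratios and shares exact Clopper-Pearson at 95%. Intervals came from scipy 1.17.1 and TMM factors from edgeR 4.0.16, under Python 3.11.15 with pandas 2.3.3, numpy 2.4.6 and matplotlib 3.10.9. The ratio and the call rule were run on simulated Poisson counts of whole populations. There 95.0% to 95.6% of the intervals held the true ratio, and 0% to 2.83% of unchanged genes were called, by comparison. These counts had no spread between cells, so they cannot show how the rule behaves where single cells hold many of the UMIs. Named were the 12 members of highest mean level, up to 6 called members per comparison and direction, and up to 4 per related list. Slbp and Npat were also named for their role. Other genes were named after their values were seen. They include Hist1h1c, Hist1h2bc and the chromosome 11 genes in the replication ranges, and the members highest in the fasted spleen. The members and lists were chosen with earlier results of these data known. Alternatives were TMM factors, other cell types kept, limits on UMIs per cell, thinned cells, the same weight per cell, the highest cell left out, and other pseudocounts and minimum levels. After the data were seen, 3 were added: replicating cells, clusters 6 and 10, or Hist1h1e left out.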

Additional observations from a re-analysis of the deposited data

Results flagged for a closer look

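For refed against fasted populations the summed histone level moved in opposite directions between tissues, with a log2 ratio of 0.10 in the spleen and 0.82 in the bone marrow against -0.16 in the tumour. Each counting interval left out 0, but with 1 sample per population the difference between tissues was not tested. The spleen ratio changed sign in 4 of the 10 other settings tried. The tumour interval held 0 without Hist1h1e, at -0.065 (-0.17 to 0.036), and in thinned cells, at -0.068 (-0.37 to 0.22). The bone marrow interval held 0 without cells above 20000 UMIs, at 0.087, without cells of 3 or more replication UMIs, at 0.088, and without clusters 6 and 10, at 0.10.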

How the results depend on the processing

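The log2 ratios of the summed level were recomputed in 90 cases (9 comparisons, 10 settings). Of these 34 lay within the counting interval of the reported ratio and 51 outside it, and 5 with an interval that left out 0 changed sign. The cause was not tested. Tumour fasting, whose interval held 0, went from 0.03 to -0.018 without Hist1h1e. Leaving out cells under 1000 UMIs moved none. Fasting stands for fasted against ad libitum and refeeding for refed against fasted. With TMM factors the ratio was -0.29 for spleen fasting, 0.18 for spleen refeeding, 0.94 for bone marrow refeeding and -0.34 for tumour against spleen. With other cell types kept the ratio was 1.18 for bone marrow against spleen. Without cells above 20000 UMIs the ratio was -0.36 for bone marrow fasting, 0.80 for tumour fasting, 0.033 for spleen refeeding, 0.087 for bone marrow refeeding, -0.49 for tumour refeeding, 0.67 for bone marrow against spleen, -1.67 for tumour against spleen and 0.22 for ad libitum against naive. In cells thinned to 1500 UMIs the ratio was -0.064 for spleen fasting, 0.46 for tumour fasting, -0.045 for spleen refeeding, 0.72 for bone marrow refeeding, 0.71 for bone marrow against spleen, -1.13 for tumour against spleen and 0.21 for ad libitum against naive. Without the highest cell of each population the ratio was -1.26 for bone marrow fasting, 0.53 for tumour fasting, 1.07 for bone marrow refeeding, -0.43 for tumour refeeding and -1.11 for tumour against spleen. With the same weight per cell the ratio was -0.10 for spleen fasting, -0.42 for bone marrow fasting, 0.61 for tumour fasting, -0.011 for spleen refeeding, 0.24 for bone marrow refeeding, -0.37 for tumour refeeding, 0.66 for bone marrow against spleen, -1.18 for tumour against spleen and 0.18 for ad libitum against naive. Without cells of 3 or more replication UMIs the ratio was -0.12 for spleen fasting, -0.78 for bone marrow fasting, 0.35 for tumour fasting, -0.11 for spleen refeeding, 0.088 for bone marrow refeeding, -0.80 for tumour refeeding, 0.56 for bone marrow against spleen and -1.10 for tumour against spleen. Without the authors' clusters 6 and 10 the ratio was -0.063 for spleen fasting, -0.36 for bone marrow fasting, 0.29 for tumour fasting, -0.12 for spleen refeeding, 0.10 for bone marrow refeeding, -0.92 for tumour refeeding, -0.34 for bone marrow against spleen, -0.84 for tumour against spleen and 0.26 for ad libitum against naive. Without Hist1h1e the ratio was 0.19 for spleen refeeding, -0.065 for tumour refeeding, 1.57 for bone marrow against spleen, -0.32 for tumour against spleen and 0.045 for ad libitum against naive. The last 3 settings were chosen after seeing the data. The TMM shift common to every gene was 0.23 in the comparison of tumour with spleen, and 0.11 in that of refed with fasted bone marrow. Of 72 recomputed counts of called members, 20 moved by more than 1.5 times. The share of all genes called follows each count. With no minimum level, 38 in place of 23 members were called higher in the bone marrow than in the spleen (6.12%), 4 in place of 2 lower in fasted spleen (0.849%), 4 in place of 1 lower (3.95%) and 2 in place of 1 higher (3.66%) in fasted tumour, 3 in place of 1 both higher (3.09%) and lower (3.87%) in refed tumour, 2 in place of 0 higher in the tumour than in the spleen (7.96%), and 1 in place of 0 higher in ad libitum against naive spleen (0.238%). At 50 CPM the counts were 12 higher (10.4%) and 0 lower (8.37%) for bone marrow against spleen, 10 lower for bone marrow fasting (12.9%), 7 higher for bone marrow refeeding (11.8%), 1 lower for spleen fasting (1.23%), 1 higher for spleen refeeding (1.52%), 0 higher for tumour refeeding (5.41%) and 2 lower for tumour against spleen (26.4%). TMM factors gave 2 higher for tumour fasting (8.45%), 2 higher (4.79%) and 2 lower (6.44%) for tumour refeeding and 2 higher for tumour against spleen (19.9%). No paired analysis was possible because each population is 1 sample with no replicate.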

Other observations

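Cells left out of the comparisons held histone RNA as well. The 20 monocyte or macrophage-like cells of the ad libitum bone marrow summed to 3380 CPM (95% counting interval 3185 to 3583), and the 33 of the fasted tumour to 525 CPM (451 to 607). T cell-like cells of the bone marrow had 411 (58 cells), 446 (15 cells) and 424 CPM (51 cells) in the ad libitum, fasted and refed populations, below the 3619, 1819 and 3222 CPM of the cells used. Their replication genes summed to 639, 427 and 406 CPM.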
